A study of Mus musculus with 18 samples.

Results

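The glutamate and GABA receptor subunits are the proteins that assemble into the receptors for the main excitatory and the main inhibitory transmitter of the brain. The members were defined by gene symbol, though the choice was made with earlier results of these data known. The symbols were those of the AMPA (Gria), NMDA (Grin), kainate (Grik), delta (Grid) and metabotropic (Grm) glutamate receptor genes. Those of the GABA-A (Gabr) and GABA-B (Gabbr) receptor genes were included too. The platform's probe table held 37 genes with such a symbol, out of 19057 genes, and 78 of its 45281 probes measured them. Genes of these families that the table did not name were not analysed here. Of the 37 members, 26 had a probe that rose above background on at least 3 arrays and were tested, and the other 11 are accounted for below.

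Transcripts were measured on 18 Illumina BeadChip arrays, 3 biological replicates each of whole brain, dendritic cells (antigen-presenting cells), B cells (the antibody lineage), Th1 and Th2 cells (helper T cell subsets, marked by interferon gamma and by interleukin 4) and naive CD4 T cells (helper T cells before any encounter with antigen). All samples were labelled C57/BL6. Every immune sample was also described as wt (wild type), and the brain descriptions did not carry that mark. The brain samples were labelled male and all immune samples male and female together, so sex and tissue cannot be told apart in comparisons with brain. How old the animals were, how the cells were sorted and whether they were cultured is not given in the sources used here. The study profiled DNA methylation and expression in the immune cells and compared both with brain; methylation was not analysed here.

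As background, AMPA, NMDA and kainate receptors are cation channels assembled from several subunits that open when glutamate binds, and GABA-A receptors are chloride channels that open when GABA binds. Metabotropic glutamate receptors and the GABA-B receptor have no pore of their own and act through G proteins. Neurons carry most of these receptors, while glutamate and GABA are also metabolites that cells outside the nervous system make, take up and break down.

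The brain arrays detected 20377 to 20497 probes each (detection p under 0.01) and the immune arrays 12564 to 16259, the fewest on Th1 replicate 3. Median raw intensity lay between 47.3 and 52.5 for brain, 51.3 and 52.7 for dendritic cells, 54.4 and 62.3 for B cells and 36.7 and 41.6 for the T cell groups, a split that follows the groups. All 4 tested neuron markers (Syt1, Rbfox3, Nefm and Stmn2) were detected on all 3 brain arrays and on no array of an immune group. Each immune group likewise had all tested markers of its own list (5 for B cells, 6 for T cells and 6 for dendritic cells) detected on its 3 arrays. The dendritic cell arrays also detected 6 of 6 granulocyte markers, 6 of 6 T cell markers, 4 of 5 B cell markers and 4 of 4 NK cell markers on all 3 arrays.

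Receptor subunit probes were detected in brain at a share near that of all probes, and on few immune arrays. All 3 brain arrays detected 42 of the 78 member probes, or 53.8%, against 47.1% of all probes with 1 gene symbol. All 3 arrays of at least 1 immune group detected 2 of the 78, or 2.56%, against 42.5% of all such probes. Counted as genes, for which no share over all genes was computed, each brain array detected 25 of the 37 members. Each dendritic cell array detected 2 or 3, each B cell array 3 or 4, the Th1 arrays 1, 1 and 0, the Th2 arrays 3, 2 and 1, and the naive CD4 T cell arrays 3, 4 and 2. An undetected probe gives only an upper limit on its own signal and shows nothing about other transcripts of the gene.

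**Figure D1:**
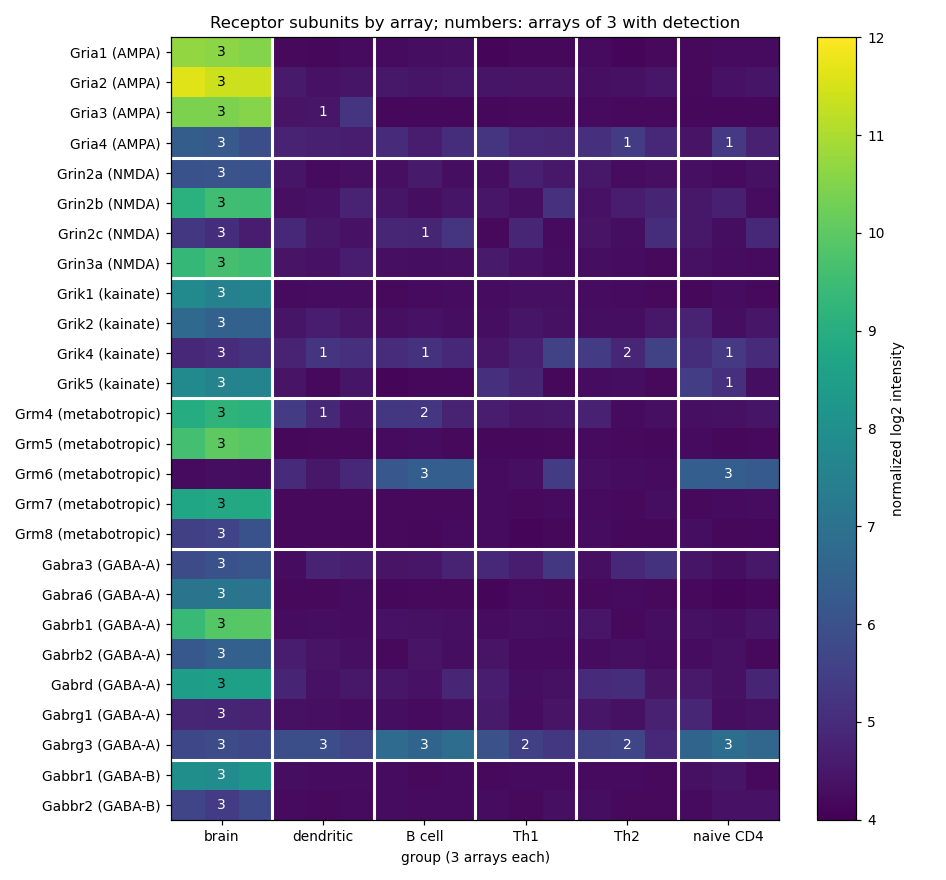
Normalized log2 intensity of the probe that stands for each of the 26 tested receptor subunits (vertical axis, by family) on the 18 arrays (horizontal axis, 3 columns per group, replicates 1 to 3 from left to right). A number in a cell block is the count of that group's 3 arrays with detection, and no number means none; 25 members carry a 3 under brain, and Grm6 and Gabrg3 alone carry a 3 under an immune group.

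The promoters of 4 members are shown as examples, which do not span the range of CpG content among members. Gria2 and Gabbr1 were detected in brain alone. Grm6 and Gabrg3 are the members detected on all 3 arrays of at least 1 immune group. CpG dinucleotides are shown because the study set expression beside DNA methylation, which in mammals falls mainly on them. Each line gives the 250 bases before the most upstream RefSeq start of the gene (GRCm38.p6), 5′ to 3′ on the gene's strand, with every CpG in capitals. They lie at chr3:80802836-80803085 (minus strand) for Gria2, chr17:37045716-37045965 (plus) for Gabbr1, chr11:50850435-50850684 (plus) for Grm6 and chr7:57387216-57387465 (minus) for Gabrg3.
Gria2: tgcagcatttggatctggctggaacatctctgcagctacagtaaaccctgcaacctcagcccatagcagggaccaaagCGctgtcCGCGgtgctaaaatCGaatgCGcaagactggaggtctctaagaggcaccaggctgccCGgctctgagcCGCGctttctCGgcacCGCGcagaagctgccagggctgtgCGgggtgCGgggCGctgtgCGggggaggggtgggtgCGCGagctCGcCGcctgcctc
Gabbr1: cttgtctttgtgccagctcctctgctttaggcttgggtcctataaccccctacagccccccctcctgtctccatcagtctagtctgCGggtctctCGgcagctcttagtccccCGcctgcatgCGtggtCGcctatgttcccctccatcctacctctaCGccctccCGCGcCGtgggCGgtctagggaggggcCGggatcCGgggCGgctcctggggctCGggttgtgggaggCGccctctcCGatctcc
Grm6: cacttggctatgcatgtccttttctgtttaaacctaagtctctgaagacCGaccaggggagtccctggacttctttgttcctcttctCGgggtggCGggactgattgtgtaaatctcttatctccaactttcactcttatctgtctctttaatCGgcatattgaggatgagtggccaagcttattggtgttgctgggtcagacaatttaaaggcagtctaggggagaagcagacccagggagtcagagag
Gabrg3: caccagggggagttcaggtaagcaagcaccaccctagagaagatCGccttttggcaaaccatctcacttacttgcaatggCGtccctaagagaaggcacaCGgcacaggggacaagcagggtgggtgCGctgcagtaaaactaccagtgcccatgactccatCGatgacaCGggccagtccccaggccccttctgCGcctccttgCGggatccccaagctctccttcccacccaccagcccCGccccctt

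These windows hold 19 CpGs for Gria2, 16 for Gabbr1, 4 for Grm6 and 9 for Gabrg3. A promoter was found for 28 of the 37 members in a table of 27025 genes, and the members' windows held a median of 9 CpGs, against 6 over all genes. The ratio of CpGs observed to those expected from base content had a median of 0.495 in members and 0.379 over all genes, and it passed 0.6 in 12 of 28 members (42.9%) and in 34.5% of all genes. Among the 28, the 15 detected on all 3 brain arrays but not on all 3 arrays of any immune group had a median of 16 CpGs, and the 11 detected on all 3 arrays of no group a median of 8. Single members ranged widely: Gabra3 had 0 CpGs, Gabra6 had 2 and Grik3 had 42. The GC box GGGCGG, searched on both strands, was present in 14 of 28 members (50%) and in 33% of all genes, TATAAA in 3 members (10.7%) and in 13% of all genes, and GGACAGC, the right part of the element bound by the neuronal repressor REST, in 1 member (Gria2, 3.57%) and in 5.28% of all genes. These are descriptions of letters in a window and were not tested.

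Brain stood above the immune cells for most members, and the question behind the comparison was how expression in immune cell types differs from that in an unrelated tissue. To pass, a member needed a limma p under 0.05 after Benjamini-Hochberg adjustment over 12094 genes and a difference of at least 2-fold. Of the 26 tested members, 21 were higher in brain than in the mean of the 5 immune groups, 1 was lower and 4 did not pass. Of all genes tested, 52.3% passed, 25.7% as higher and 26.6% as lower. The median log2 difference, brain minus immune, was 3.03 over the members and −0.15 over all genes. These figures give no support by themselves, since 22 of the 26 entered the test through the brain arrays alone and 20 of those passed as higher, as did 61.6% of the 2315 genes that entered in the same way. Of the 4 members detected on at least 3 immune arrays, 2 passed, against 50.1% of 9779 such genes. The 21 members were higher in brain than in each of the 5 immune groups, as were 18.9% of all genes; these comparisons share the brain arrays. Group by group, 21 members were higher and 0 lower against dendritic cells (51.6% of all genes passed, 25.4% as higher and 26.2% as lower), Th1 cells (55.7%, 28.5% and 27.1%) and Th2 cells (56.4%, 28.6% and 27.8%). Against B cells (52.3%, 26% and 26.3%) and naive CD4 T cells (53.3%, 26.2% and 27.1%) 21 were higher and Grm6 was lower. With cyclic loess Grm6 also passed as lower in brain than in dendritic cells (fitted log2 difference −1.405), Th1 cells (−1.44) and Th2 cells (−1.34). In RNA from a whole tissue or cell population, fewer cells of a type and less RNA per cell cannot be told apart.

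**Figure D2:**
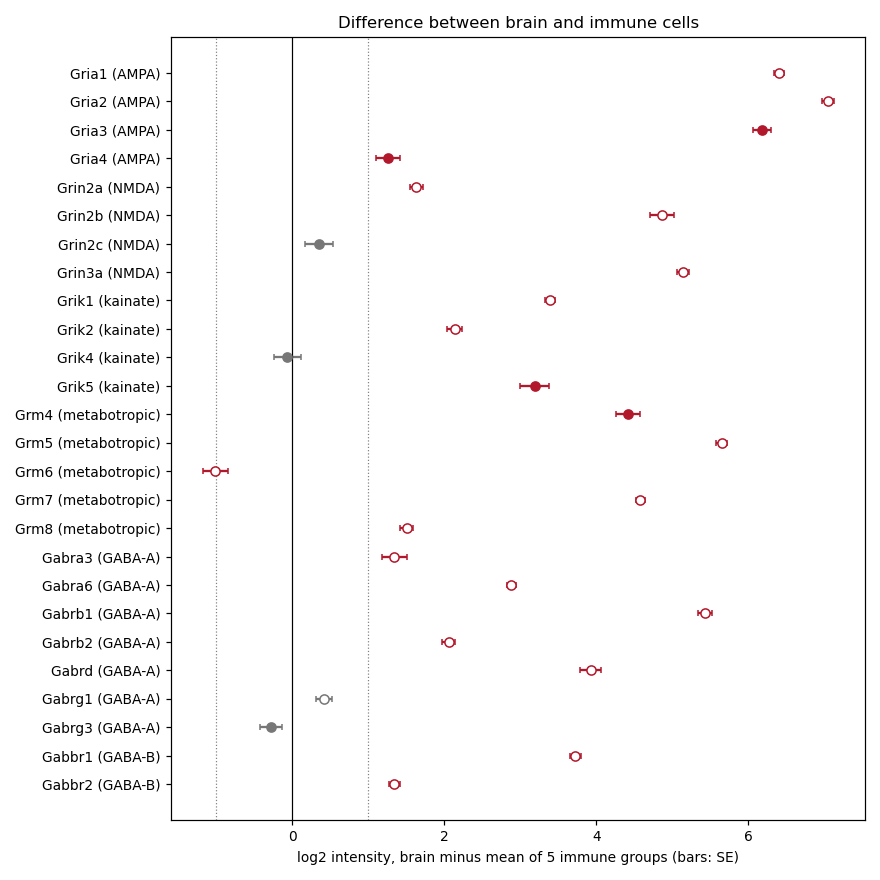
Difference in normalized log2 intensity, brain minus the mean of the 5 immune groups (horizontal axis), for the 26 tested receptor subunits (vertical axis), with bars of 1 SE from limma. Red marks passed and grey marks did not; open marks have a side undetected on every array, so that their value is a fitted difference and not a measured fold; the dotted lines mark 2-fold.

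The 4 AMPA receptor subunits, which carry fast excitatory transmission, were all higher in brain. This count and those of the families below stand beside 25.7% of all genes that were higher. Among genes that entered the test through the brain arrays alone, as most members did, 61.6% were higher. Gria2, the subunit whose edited form keeps calcium out of the channel, had normalized log2 intensities of 11.62, 11.40 and 11.39 on the brain arrays, against 4.21, 4.44 and 4.57 as the lowest, median and highest of the 15 immune arrays, none of which detected it. That put Gria2 at least 75.3-fold higher in brain (limma adjusted p = 8.49e-21). In such a bound, and in those that follow, the lowest signal detected on each array stands in for the undetected side. All 3 Gria2 probes passed when each was tested on its own. Gria1, a subunit that reaches the synapse during potentiation, had 10.71, 10.60 and 10.53 in brain, against 4.13, 4.21 and 4.31 as the lowest, median and highest immune values, and was at least 41.6-fold higher (adjusted p = 4.28e-21), with all 4 probes passing.

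Gria3 had 10.41, 10.43 and 10.56 in brain, against 4.16, 4.19 and 5.21 as the lowest, median and highest immune values. Its highest immune value belonged to dendritic cell replicate 3, the only immune array with detection of that probe, and a second Gria3 probe was detected on 2 dendritic cell arrays and 1 Th2 array. The log2 difference, brain minus immune, was 6.18 ± 0.12 (SE; limma adjusted p = 7.65e-18). Gria4 had 6.35, 6.24 and 5.91 in brain, against 4.43, 4.88 and 5.38 as the lowest, median and highest immune values, with detection on 1 Th2 and 1 naive CD4 T cell array. Its log2 difference was 1.26 ± 0.16 (adjusted p = 1.07e-06); the value was 0.82 without background correction and 0.72 with an offset of 50, both under the 2-fold threshold. The Gria4 probe on the RefSeq transcript gave 2.38 ± 0.07 when tested on its own, and the third probe was undetected on all 18 arrays.

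Of the 6 NMDA receptor members, which gate calcium entry when glutamate and depolarisation coincide, 4 were tested and 3 were higher in brain. Grin2b, a glutamate-binding subunit prominent early in development, had 9.11, 9.56 and 9.52 in brain, against 4.26, 4.47 and 5.13 as the lowest, median and highest values on immune arrays, all undetected, and was at least 17.9-fold higher (limma adjusted p = 9.35e-15). Its other 2 probes were undetected on every array, brain included. Grin3a, a glycine-binding subunit that lowers calcium entry, had 9.32, 9.63 and 9.52 in brain, against 4.21, 4.32 and 4.62, and was at least 19.1-fold higher (adjusted p = 9.69e-19).

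Grin2a, a glutamate-binding subunit that gains prominence as the brain matures, was higher through the weaker of these signals. Its probe on a mouse cDNA clone had 6.01, 6.04 and 6.01 in brain, against 4.23, 4.33 and 4.70 as the lowest, median and highest immune values, at least 1.72-fold (limma adjusted p = 2.32e-11), while the probe on the RefSeq transcript was undetected everywhere. With an offset of 50 the fitted log2 difference was 0.85, under the threshold. Grin2c, the NMDA receptor subunit of cerebellar granule cells, did not pass: it had 5.29, 5.03 and 4.66 in brain, against 4.21, 4.52 and 5.25, the highest being the 1 B cell array that detected it, a log2 difference of 0.36 ± 0.19 (adjusted p = 0.0851), and the groups overlapped. Grin2d and Grin3b were undetected on all 18 arrays.

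Of the 5 kainate receptor members, 4 were tested and 3 were higher in brain. Grik1, a low-affinity kainate subunit, had 7.80, 7.51 and 7.62 in brain, against 4.19, 4.25 and 4.32 as the lowest, median and highest of the undetected immune arrays, and was at least 5.31-fold higher (limma adjusted p = 1.87e-17). That result rests on 1 of its 7 probes, since 5 were undetected everywhere and 1 was detected on 1 brain array. Grik2, likewise a low-affinity subunit, had 6.74, 6.48 and 6.47 in brain, against 4.29, 4.40 and 4.77, and was at least 2.51-fold higher (adjusted p = 1.31e-12).

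Grik5, a high-affinity subunit that forms channels together with the low-affinity ones, had 7.82, 7.59 and 7.60 in brain, against 4.16, 4.29 and 5.46 as the lowest, median and highest immune values, a log2 difference of 3.19 ± 0.18 (limma adjusted p = 4.35e-11). Naive CD4 T cell replicate 1 gave the highest immune value and the only detection. Grik4, its high-affinity relative, had 4.88, 5.0 and 5.17 in brain, against 4.49, 5.03 and 5.58, with detection on all 3 brain arrays and on 5 immune arrays. The groups overlapped and the log2 difference was −0.06 ± 0.18 (adjusted p = 0.751). Grik3 was undetected on all 18 arrays.

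Of the 6 metabotropic members, 5 were tested, 4 were higher in brain and Grm6 was lower. Grm5, which couples to Gq and releases calcium from stores, had 9.61, 10.01 and 9.93 in brain, against 4.17, 4.19 and 4.26 as the lowest, median and highest of the undetected immune arrays, and was at least 24.5-fold higher (limma adjusted p = 9.77e-20). Grm7, a presynaptic Gi-coupled receptor, had 8.70, 8.83 and 8.87 in brain, against 4.19, 4.22 and 4.28, and was at least 11.9-fold higher (adjusted p = 1.15e-19). Probes disagreed on size for both: the other 2 Grm5 probes had log2 differences of 1.99 and 0.58, and the other 3 Grm7 probes had 1.33, 0.95 (not passing) and no detection on any array.

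Grm4, a presynaptic receptor prominent in cerebellum, had 8.96, 9.20 and 9.11 in brain, against 4.24, 4.52 and 5.42 as the lowest, median and highest immune values, a log2 difference of 4.42 ± 0.16 (limma adjusted p = 6.74e-14). It was detected on 2 B cell arrays and 1 dendritic cell array, and its second probe differed by only 0.30 ± 0.09. Grm8, of the same Gi-coupled group, had 5.51, 5.61 and 6.0 in brain, against 4.14, 4.19 and 4.30, and was at least 1.39-fold higher (adjusted p = 2.67e-11); with an offset of 50 its fitted log2 difference was 0.72, under the threshold. Grm3 was undetected on all 18 arrays.

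Of the 14 GABA-A members, 5 were higher in brain, 2 were tested and did not pass, and 7 were not detected on enough arrays to be tested. Among the alpha subunits, which form the GABA site with their neighbours, Gabra6 of cerebellar granule cells had 7.08, 7.12 and 7.05 in brain. The undetected immune arrays had 4.14, 4.20 and 4.26 as their lowest, median and highest values. Gabra6 was at least 3.60-fold higher in brain (limma adjusted p = 2.78e-17). Gabra3 had 5.85, 6.03 and 6.14 in brain, against 4.28, 4.61 and 5.29, and was at least 1.71-fold higher (adjusted p = 6.08e-07); its fitted log2 difference was 0.86 without background correction and 0.72 with an offset of 50, both under the threshold. Gabra4 and Gabra5 were undetected on all 18 arrays.

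Among the beta subunits, Gabrb1 had 9.42, 9.90 and 9.92 in brain, against 4.20, 4.31 and 4.48 as the lowest, median and highest immune values, and was at least 22.8-fold higher (limma adjusted p = 2.38e-18), with both probes passing. Gabrb2 had 6.22, 6.45 and 6.47 in brain, against 4.19, 4.29 and 4.62, and was at least 2.21-fold higher (adjusted p = 3.09e-13) through 1 of 4 probes, the other 3 being undetected on all arrays. Gabrd, the delta subunit of receptors outside the synapse that carry tonic inhibition, had 8.47, 8.55 and 8.54 in brain, against 4.31, 4.50 and 5.04, and was at least 9.77-fold higher (adjusted p = 5.55e-14), with both probes passing. All arrays of the immune groups lay below the brain arrays for these 3 genes.

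The gamma subunits, which are known for placing the receptor at the synapse, did not pass. Gabrg1 had 4.86, 4.84 and 4.81 in brain, where all 3 arrays detected 1 of its 4 probes, against 4.25, 4.35 and 4.86 on undetected immune arrays. Its fitted log2 difference was 0.42 ± 0.11 (limma adjusted p = 0.00166), short of 2-fold. Gabrg3 had 5.75, 5.86 and 5.72 in brain, against 4.89, 5.92 and 6.89, a log2 difference of −0.28 ± 0.15 (adjusted p = 0.0921) that was 0.65 with median scaling of the arrays, where the median of all genes was 0.47. The pi, theta and rho subunits (Gabrp, Gabrq, Gabrr1, Gabrr2 and Gabrr3), known mainly from epithelia, certain brainstem and hypothalamic neurons and retina, were undetected on all 18 arrays.

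Both GABA-B subunits, which work only as a pair, were higher in brain. Gabbr1, which binds GABA, had 7.98, 7.85 and 8.13 in brain, against 4.19, 4.23 and 4.46 as the lowest, median and highest of the undetected immune arrays, and was at least 6.73-fold higher (limma adjusted p = 1.20e-17) through 1 of 2 probes. Gabbr2, which couples to the G protein, had 5.66, 5.41 and 5.76 in brain, against 4.20, 4.25 and 4.40, and was at least 1.30-fold higher (adjusted p = 2.61e-11). Its fitted log2 difference was 0.90 without background correction and 0.64 with an offset of 50, both under the threshold.

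Probes of one gene often disagreed. Of the 22 members with several probes, 8 had every probe detected on all 3 brain arrays, 11 had some detected and some not, and 3 had none; of the 15 with 1 probe, 6 were detected on all 3 brain arrays. Across the 78 probes, 33 were detected on no array. When each detected probe was tested on its own, 35 of 43 member probes were higher in brain (49.5% of all 19872 probes passed, 23.8% as higher), 1 was lower and 7 did not pass. Most of these probes, too, entered through brain. Gabra4 and Grm3 rest on 1 probe each, and its lack of signal in brain says nothing about other transcripts of the gene.

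**Figure D3:**
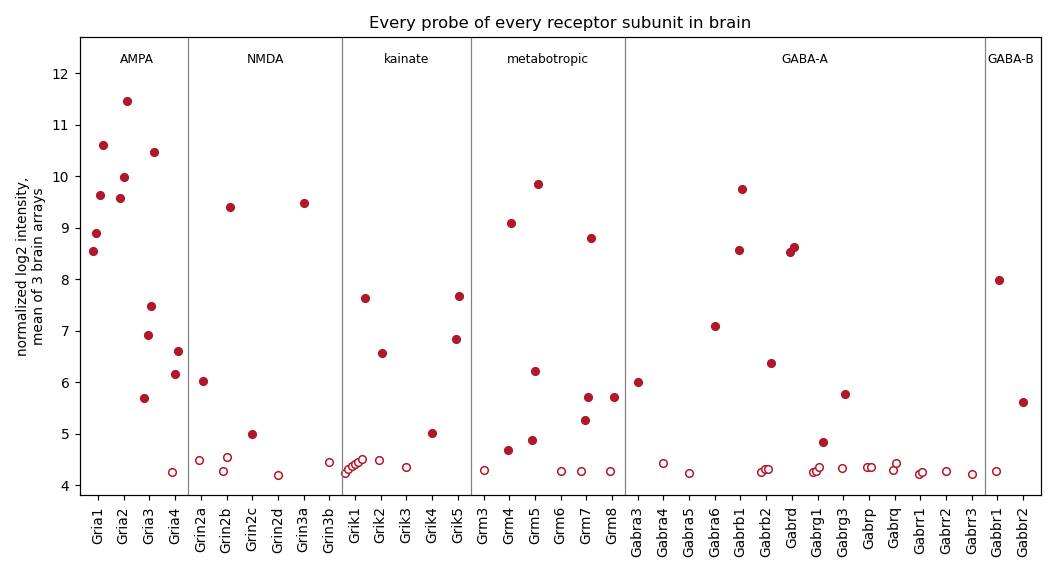
Mean normalized log2 intensity over the 3 brain arrays (vertical axis) of all 78 probes of the 37 receptor subunits (horizontal axis, by family). Filled points were detected on all 3 brain arrays and open points were not; Grik1 has 1 filled point of 7 and Gria1 has 4 of 4, and heights are not comparable between probes.

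Grm6 was the member that ran against the family. It encodes mGluR6, known as the glutamate receptor of ON bipolar cells in the retina, and its 1 probe was undetected in brain, at normalized log2 intensities of 4.24, 4.29 and 4.28. All 3 B cell arrays detected it, at 6.18, 6.40 and 6.38, and so did all 3 naive CD4 T cell arrays, at 6.40, 6.40 and 6.27. No other array did: dendritic cells had 4.97, 4.51 and 4.91, Th2 cells 4.32, 4.26 and 4.22, and Th1 cells 4.23, 4.32 and 5.38. Replicate 3 of Th1 cells stood above the other 2 without reaching detection, on the array with the fewest detected probes. B cell and naive values did not overlap with those of any other group.

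Brain was at least 3.34-fold lower than B cells (limma adjusted p = 1.64e-07) and at least 3.43-fold lower than naive CD4 T cells (adjusted p = 1.28e-07) for Grm6. Against the mean of the 5 immune groups the fitted log2 difference was −1.01 ± 0.17 (adjusted p = 2.87e-05), at the fold threshold itself: it was −0.94 without Th1 replicate 3 and −0.69 without background correction, and no longer passed. In T cells, Th1 cells were at least 1.92-fold lower than naive cells (limma adjusted p = 3.39e-06) and Th2 cells at least 1.94-fold lower (adjusted p = 3.74e-07). Dendritic cells were at least 2.48-fold lower than naive CD4 T cells (adjusted p = 1.26e-05) and at least 2.42-fold lower than B cells (adjusted p = 2.53e-05). B cells and naive cells differed by −0.04 ± 0.22 (adjusted p = 0.935). The comparisons of Th1, Th2 and dendritic cells with naive cells share the naive arrays. With an offset of 50 the fitted differences were −0.95 for Th1 and −0.90 for dendritic cells against naive cells and −0.88 for dendritic against B cells, all under 2-fold. In the authors' scaled signal they were −0.95 for Th2 and −0.93 for dendritic cells against naive cells and −0.90 for dendritic against B cells, also under 2-fold.

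On RNA of other cells in these samples, 3 of 5 B cell markers (Ms4a1, Blk and Pax5) were detected on none of the naive CD4 T cell arrays and 1 was detected on all 3, and the summed linear signal of the 5 was 146 to 328 there, against 21337 to 22139 on the B cell arrays. The B cell arrays detected 5 of 6 T cell markers, with a summed signal of 421 to 896, against 33796 to 34667 on the naive arrays. The part of other cells' RNA in the Grm6 signal was not tested. RefSeq places Grm6 on chromosome 11 between Zfp879 and Zfp454, with no other gene overlapping it.

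Gabrg3 was the other member detected in immune cells, on 13 of 15 arrays. Its probe on a mouse cDNA clone had 6.0, 5.52 and 5.31 in Th1 cells, against 6.59, 6.89 and 6.64 in naive CD4 T cells, a log2 difference of −1.10 ± 0.19 (limma adjusted p = 1.16e-04). Th2 cells had 5.58, 5.68 and 4.89, a difference from naive cells of −1.33 ± 0.19 (adjusted p = 1.73e-05). Neither T helper group overlapped with naive cells. Dendritic cells had 5.92, 5.91 and 5.67 and lay 0.87 ± 0.19 below naive cells on the log2 scale (adjusted p = 0.00111), short of 2-fold.

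B cells had 6.78, 6.57 and 6.85 for Gabrg3 and differed from naive cells by 0.03 ± 0.19 (limma adjusted p = 0.950). Dendritic cells lay 0.90 ± 0.19 below B cells (adjusted p = 0.00133), and brain lay 0.96 ± 0.19 below B cells (adjusted p = 2.37e-04) and 0.93 ± 0.19 below naive cells (adjusted p = 3.06e-04), all short of 2-fold. The Th1 difference was −0.95 without Th1 replicate 3, and with an offset of 50 the Th1 and Th2 differences were −0.74 and −0.86, all under the threshold. Also under it were the Th1 and Th2 differences without background correction (−0.80 and −0.94) and in the authors' scaled signal (−0.89 and −0.84). With cyclic loess the Th1 difference was −0.92, under 2-fold as well. Other settings made further Gabrg3 comparisons pass. With median scaling, dendritic minus B cells was −1.26, where the median of all genes was −0.23. Brain minus Th1 and brain minus Th2 were then 1.37 and 1.60, where the medians of all genes were 0.73 and 0.86. Brain minus B cells was −1.04 without B cell replicate 2. The second Gabrg3 probe, on the RefSeq transcript, was undetected on all 18 arrays, so the pattern belongs to the cDNA clone's probe. RefSeq lists 4 pseudogenes (Gm17984, Gm17987, Gm18642 and Gm18308) and the long noncoding RNA gene Gm39017 within or across Gabrg3, and whether the probe reads any of them was not tested.

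**Figure D4:**
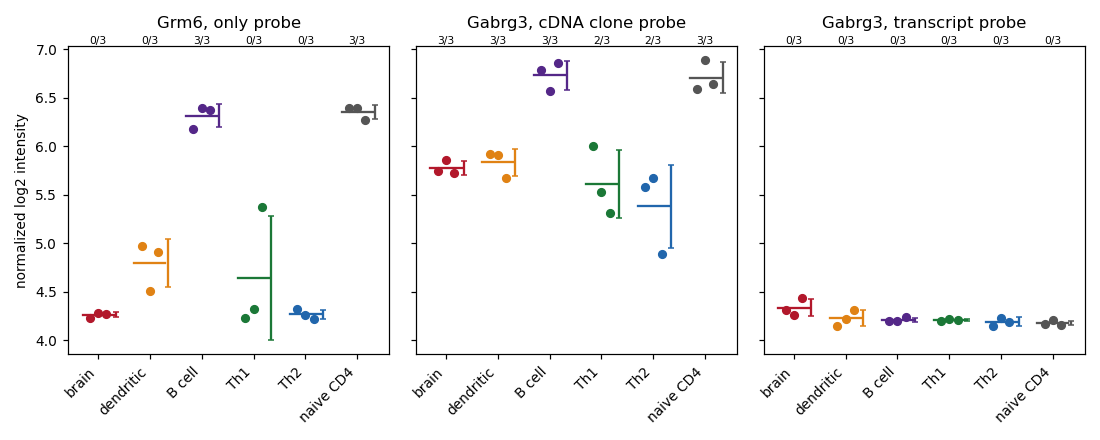
Normalized log2 intensity (vertical axis) of the Grm6 probe and of both Gabrg3 probes on the 3 arrays of each group (horizontal axis); points are arrays in the order of their replicate numbers, short lines are means and bars are 1 SD, and the fraction above each group is arrays with detection. B cells and naive CD4 T cells stand above the other groups for Grm6 and for the Gabrg3 cDNA clone probe, and the Gabrg3 transcript probe lies at 4.43 or below on every array.

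Among immune cells, then, few receptor subunits moved. In Th1 against naive CD4 T cells 2 of 26 members were lower, Grm6 and Gabrg3, and none was higher (28.4% of all genes passed, 13% as higher and 15.4% as lower). The same members were lower in Th2 against naive cells (27% of all genes passed, 12.6% as higher and 14.4% as lower). Dendritic cells against naive cells had 1 lower member, Grm6 (23% of all genes, 13.2% as higher and 9.83% as lower), as did dendritic cells against B cells (14.7% of all genes, 10.2% as higher and 4.53% as lower). In B cells against naive cells limma called 0 members, with 2 at an unadjusted p under 0.05, where 14.2% of all genes passed (7.3% as higher and 6.92% as lower). In Th1 against Th2 cells it called 0, with 0 at an unadjusted p under 0.05, where 4.5% of all genes passed (2.18% as higher and 2.32% as lower). Of the 26 members, 18 were undetected on all 15 immune arrays, where only background can be compared.

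A moderated F-test for any difference among the 5 immune groups passed 5 of 26 members, against 76.4% of all genes tested. Besides Grm6 (limma adjusted p = 1.17e-07) and Gabrg3 (adjusted p = 7.76e-06) these were Gria3 (0.0146), Grm4 (0.0155) and Grik5 (0.0328), none of which passed 2-fold between immune groups. Gria3 had 4.42, 4.47 and 5.21 in dendritic cells, against 4.16, 4.18 and 4.16 in naive cells. Grm4 had 5.29, 5.27 and 4.77 in B cells, against 4.33, 4.36 and 4.45 in naive cells. Grik5 had 4.26, 4.29 and 4.20 in Th2 cells, against 5.46, 5.10 and 4.29 in naive cells, and passed in Th2 and B cells against naive cells when naive replicate 3 was left out (log2 differences of −1.03 and −1.11). Detection was limited to 1 dendritic cell array for Gria3, 2 B cell arrays and 1 dendritic cell array for Grm4, and 1 naive array for Grik5.

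Some genes that make, move and break down the transmitters were detected in immune cells as well as in brain. Of 16 tested glutamate transport and metabolism genes (19 listed), 8 were higher in brain and 2 lower, and of 8 tested GABA genes (9 listed) 6 were higher and 0 lower, where 25.7% of all genes were higher and 26.6% lower. The median log2 difference was 1.18 for the first list and 4.64 for the second, beside −0.15 over all genes, and 7 and 4 of their members entered through brain alone. Slc1a3, the astrocyte glutamate transporter, had a log2 difference of 8.37 ± 0.20 (limma adjusted p = 1.44e-16), Slc17a7, a vesicular glutamate transporter, was at least 37.0-fold higher in brain, and Slc1a1, a neuronal glutamate transporter, at least 22.6-fold. Slc32a1, the vesicular GABA transporter, had a log2 difference of 7.26 ± 0.15, Gad1, a GABA-making decarboxylase, 7.14 ± 0.09, and Abat, the enzyme that breaks GABA down, was at least 59.3-fold higher. Slc1a5, a glutamine transporter, was at least 6.57-fold lower in brain. Slc38a2, another, had a log2 difference of −1.08 ± 0.20. Its mean normalized log2 intensity was 9.70 in brain, 9.93 in Th1 cells and 9.86 in Th2 cells. It was 11.29 in dendritic cells, 11.49 in B cells and 11.34 in naive CD4 T cells. Both genes were named after their values were seen.

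Gad1 was also measured in B cells. It had 7.30, 7.23 and 6.88 there, against 4.25, 4.23 and 4.38 in undetected naive CD4 T cells, at least 3.81-fold higher (limma adjusted p = 5.71e-12), and all 3 of its detected probes passed. Brain had 12.13, 11.93 and 11.95, and the dendritic, Th1 and Th2 arrays were undetected. Gad2, the other GABA-making decarboxylase, had 6.10, 6.35 and 5.60 in Th1 cells, with detection on 2 of 3 arrays. Naive cells had 4.18, 4.28 and 4.22, so Th1 cells were at least 1.75-fold higher (limma adjusted p = 1.16e-08). The fitted log2 difference was 0.91 with an offset of 50 and 0.77 in the authors' scaled signal, both under 2-fold. Th2 cells had 4.21, 4.36 and 4.25. Gad1 thus stood out in B cells and Gad2 in Th1 cells, each against undetected groups.

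Slc17a6, a vesicular glutamate transporter of neurons, was higher in both T helper groups than in naive cells. It had 8.52, 9.71 and 9.50 in Th2 cells and 6.49, 6.59 and 6.30 in Th1 cells, against 4.60, 4.30 and 4.41 in undetected naive CD4 T cells, and both of its probes passed. Th2 cells were at least 16.4-fold higher than naive cells (limma adjusted p = 3.41e-11) and Th1 cells at least 2.38-fold (adjusted p = 1.03e-06). Th1 minus Th2 was −2.78 ± 0.23 on the log2 scale (adjusted p = 3.07e-07). No Th1 array reached a Th2 array. Of the plasma membrane transporters, Slc1a4 was higher than in naive cells in Th1 cells (3.89 ± 0.30) and in Th2 cells (3.06 ± 0.30), and Slc38a1 was higher in Th1 cells (3.40 ± 0.26), Th2 cells (3.02 ± 0.26) and B cells (1.34 ± 0.26), the last through 1 of its 4 probes.

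Slc6a12 and Slc6a13, transporters that take up GABA and betaine or taurine outside synapses, were higher in dendritic cells. Slc6a12 had 8.21, 8.25 and 8.72 there, against 4.30, 4.54 and 4.37 in naive CD4 T cells, at least 9.08-fold higher (limma adjusted p = 3.56e-12), and its brain values were 4.96, 5.23 and 5.11. Slc6a13 had 8.31, 8.32 and 8.57 in dendritic cells, against 4.41, 4.23 and 4.46 in naive cells, at least 9.13-fold higher (adjusted p = 1.83e-13), and its brain values were 6.80, 6.43 and 6.61. Both were also higher in dendritic cells than in B cells. The dendritic cell arrays had a summed granulocyte marker signal of 37142 to 53795, against 119 to 292 on the naive arrays and 160 to 406 on the B cell arrays, and a dendritic cell marker signal of 2668 to 3146, against 116 to 125 on the naive arrays; the part of other cells' RNA in these differences was not tested.

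**Figure D5:**
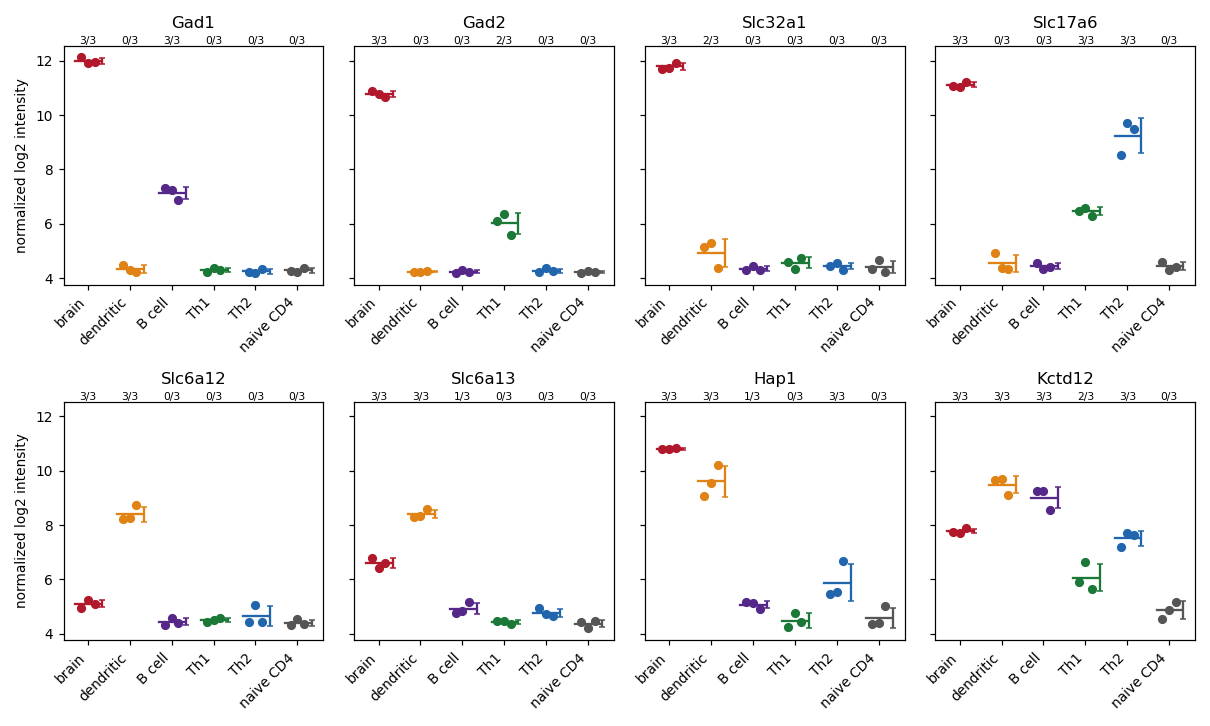
Normalized log2 intensity (vertical axes) of 8 genes of transmitter synthesis, transport and receptor trafficking on the 3 arrays of each group (horizontal axes), with means as lines, 1 SD as bars and arrays with detection as fractions. Gad1 stands up in B cells besides brain, Gad2 in Th1 cells, Slc17a6 in Th2 and less in Th1 cells, and Slc6a12 and Slc6a13 in dendritic cells.

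Most partner proteins of the receptors were also higher in brain. Of the glutamate receptor auxiliary subunits 12 of 13 tested (17 listed) were higher in brain, of the glutamate receptor scaffolds 18 of 20 (25 listed), of the GABA receptor scaffolding and trafficking genes 8 of 15 (19 listed) and of the glycine receptor subunits 2 of 3 (5 listed). No member of these 4 lists was lower in brain, and 11, 11, 2 and 3 of them entered through brain alone. Of all genes 25.7% were higher in brain, and of those that entered through brain alone 61.6%. Gsg1l, an AMPA receptor auxiliary subunit, was at least 9.73-fold higher, through 1 of its 2 detected probes. Dlgap1, a postsynaptic scaffold, was at least 117-fold higher and Camk2a, the calcium-activated kinase of the postsynaptic density, at least 55.7-fold. Glra2 was at least 7.90-fold and Glrb at least 7.32-fold higher. Sort1, a sorting receptor, had a log2 difference of 5.97 ± 0.17 (through 3 of 4 probes), Porcn 5.23 ± 0.14 and Camk2b 6.78 ± 0.16. Nlgn2, the adhesion protein of inhibitory synapses, had 3.94 ± 0.17. Gabarapl2, of the family that includes a GABA-A receptor trafficking protein, had 3.69 ± 0.15, through 1 of its 2 detected probes. Hap1, described next, had 4.88 ± 0.23, through 1 of 4 probes.

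Between immune groups, single partner genes differed widely. Hap1, which carries GABA-A receptors along microtubules in neurons, had 9.07, 9.55 and 10.19 in dendritic cells, against 4.35, 4.41 and 5.01 in naive CD4 T cells, at least 21.0-fold higher (limma adjusted p = 4.07e-10), though 1 of its 4 probes passed. Kctd12, an auxiliary protein of the GABA-B receptor, had 9.67, 9.68 and 9.11 in dendritic cells and 9.24, 9.24 and 8.55 in B cells, against 4.53, 4.89 and 5.18 in naive cells, at least 19.4-fold (adjusted p = 1.20e-10) and at least 13.9-fold higher (adjusted p = 8.38e-10), with both probes passing in each. Both GABA-B receptor subunits were undetected on every immune array.

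In T helper cells, Gabarapl1, an autophagy protein of the same family as Gabarapl2, was higher than in naive CD4 T cells by 4.66 ± 0.17 on the log2 scale in Th1 cells and by 4.10 ± 0.17 in Th2 cells (limma adjusted p = 9.20e-13 and 5.17e-12). Nlgn2 was at least 5.22-fold higher in Th1 cells than in naive cells. Camk2b was at least 3.17-fold lower in Th1 cells and at least 3.19-fold lower in Th2 cells, and the scaffold gene Dlg3 at least 2.63-fold and 2.65-fold lower. Neto2, a kainate receptor auxiliary subunit, was at least 1.88-fold higher in Th2 cells than in naive cells. Detection was on 2 of 3 Th2 arrays, and 2 of its 3 probes passed. Its fitted log2 difference was under 2-fold with an offset of 50 (0.72), without background correction (0.81) and in the authors' scaled signal (0.63). It was also under 2-fold with median scaling (0.77, limma adjusted p = 0.0574) and without Th2 replicate 1 (0.92). No kainate subunit passed in Th2 against naive cells. In dendritic cells against naive cells Sort1 was higher by 5.02 ± 0.23, through 2 of 4 probes, and Homer2, a scaffold of metabotropic receptors, at least 2.43-fold.

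Further list genes passed between immune groups by smaller steps. Against naive CD4 T cells, dendritic cells were at least 1.61-fold higher for Slc1a3, higher by 1.43 ± 0.13 on the log2 scale for Got2, which interconverts glutamate and aspartate in mitochondria, and lower for Dlg3 (−1.41 ± 0.17). Against B cells, dendritic cells were higher for Slc12a2, a chloride importer (2.81 ± 0.20), and for Hap1 (4.53 ± 0.30, through 1 of 4 probes). They were also higher for Sort1 (at least 41.5-fold, through 2 of 4 probes), Homer2 (at least 2.61-fold) and Slc1a3 (at least 1.73-fold), and lower for Slc1a5 (−1.08 ± 0.19). Against naive cells, B cells were lower for Aldh5a1, the enzyme after Abat in GABA breakdown (at least 2.12-fold), for Camk2b (−1.48 ± 0.21) and for the postsynaptic scaffold gene Dlg4 (at least 1.18-fold). Aldh5a1 had a log2 difference of 1.18 ± 0.26 in Th1 against naive cells, but its 2 detected probes passed in opposite directions. Kctd12 was at least 4.93-fold higher in Th2 cells than in naive cells, through 1 of 2 probes. With an offset of 50 the fitted differences for Slc1a3 (0.76 and 0.82) and Dlg3 in dendritic cells (−0.94) were under 2-fold. So were those for Slc1a5 (−0.72), Aldh5a1 in B cells (−0.94) and Dlg4 (−0.49). Slc1a5 was also under it without background correction (−0.78), with cyclic loess (−0.89), in the authors' scaled signal (−0.79) and without dendritic replicate 3 (−0.90). Dlg4 was too without background correction (−0.68), with median scaling (−0.69), in the authors' signal (−0.77) and without naive replicate 2 (−0.81). Slc1a3 against naive cells had 0.95 without background correction and 0.72 in the authors' signal.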

How the data were processed

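Total RNA of 18 samples was made into biotinylated cRNA and measured on Illumina mouse BeadChips, as the labels' protocols state. The deposited table without normalization held a linear intensity per probe and array, and the detection p-value of each was deposited beside it; the submitters' processing notes name GenomeStudio without saying which version or what for. A second deposited table held the authors' scaled intensities, in which every array is the unnormalized one times a constant that sets its mean to 229 (column medians 38.8 to 61); it served as an alternative. Its values are linear, uncentred and carry no direction.

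Background was corrected by normexp from the detection p-values (offset 16), followed by quantile normalization and log2, with limma 3.58.1 in R 4.3.3. A detection p under 0.01 on 3 or more arrays was reached by 23771 probes, 19872 of them with 1 gene symbol; 34885 of 45281 probes had 1 symbol, 18 several and 10378 were not listed. Each of 12094 genes was represented by its probe of highest mean. Group means of all 18 arrays were fitted in limma, with 12 comparisons and Benjamini-Hochberg adjustment within each; all adjusted p-values are limma's, and SE are the fit's. Where a group was undetected on all its arrays, a fold is a lower bound. Array number limits the precision. The fit was tested on simulated data. Promoters came from RefSeq and were read with Python 3.11.15.

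Members and gene lists were chosen with earlier results of these data known. Of each list the text names the 3 passing genes with the largest absolute difference between brain and the immune mean. It also names the 2 largest passing in each comparison between immune groups. Slc1a5, Slc38a2, Slc38a1 in Th2 cells and Nlgn2 in Th1 against Th2 cells were named after their values were seen. Slc17a6 in Th1 against naive cells was also named outside this rule. No source used here gives the slide or scan date, and neither was tested. Replicate numbers were shared by Th1 and Th2 arrays: same-numbered arrays deviated together (r = 0.592, 0.316 and 0.675) and 6 of 6 correlated best with their own number, so the pair was also fitted with the number as a block. No 2 arrays of a group held more than 1 identical value.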

Additional observations from a re-analysis of the deposited data

Results flagged for a closer look

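The difference between Th1 and Th2 cells was tested directly, and 5 partner genes of the receptors passed it (limma, log2 Th1 minus Th2). Of 16 tested glutamate transport and metabolism genes 1 was lower in Th1 cells, and of 8 GABA genes 1 was higher. Of 15 GABA receptor scaffolding and trafficking genes 1 was higher and 2 lower. None passed among 13 glutamate receptor auxiliary subunits, 20 glutamate receptor scaffolds and 3 glycine receptor subunits. Slc17a6 differed by −2.783 ± 0.230, with 2.03 in Th1 and 4.81 in Th2 cells over naive CD4 T cells. Gad2 differed by 1.742 ± 0.140, with 1.79 in Th1 and 0.05 in Th2 cells over naive cells. It was under 2-fold with an offset of 50 (0.90), cyclic loess (0.94) and the authors' scaled signal (0.55). Nlgn2 differed by 1.154 ± 0.225, with 2.89 in Th1 and 1.74 in Th2 cells over naive cells. Hap1 differed by −1.41 ± 0.301, with −0.11 in Th1 and 1.30 in Th2 cells over naive cells, through 1 of its 4 probes. That difference was under 2-fold with 5 alternative processings (−0.65 to −0.93), and its limma adjusted p was 0.0862 when only the groups compared were fitted. Kctd12 differed by −1.453 ± 0.253, with 1.19 in Th1 and 2.64 in Th2 cells over naive cells, through 1 of its 2 probes. Every Th1 array lay on one side of every Th2 array for each of these genes, and 4.5% of all genes passed the same comparison. The Th1 arrays also had a summed Th2 marker signal of 6438 to 9472 and the Th2 arrays a Th1 marker signal of 26837 to 31655, and the part of this in the differences was not tested.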

How the results depend on the processing

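Of 1545 values of members under the alternatives, 1494 kept their call, 29 no longer passed, 22 newly passed and 0 calls reversed. Part of the 22 passed only in the setting with no fold threshold, where the values were unchanged and still under 2-fold. The number of members passing between brain and the immune mean (22) was 21 to 22 with 1 array left out, 18 without background correction and 16 with an offset of 50, where Gabbr2, Gabra3, Gria4, Grin2a, Grm6 and Grm8 fell under 2-fold. Between immune groups it also depended on the processing. Th1 against naive CD4 T cells (2) had 1 without background correction, 0 with an offset of 50, 1 with cyclic loess and 1 in the authors' scaled signal; Th2 against naive cells (2) had 1, 1 and 0 under the same alternatives without loess. Dendritic against B cells (1) had 0, 0 and 0 under these, 2 with median scaling and 3 with no fold threshold; dendritic against naive cells (1) had 0 with an offset of 50, 0 in the authors' signal and 5 with no fold threshold, and B cells against naive cells (0) had 2 with no fold threshold. The F-test among immune groups (5) had 3 with an offset of 50, 17 with cyclic loess and 17 in the authors' signal. With 1 array left out it passed 3 to 6 (3 without B cell replicate 1 or 2), Th1 against naive cells 1 to 2 (1 without Th1 replicate 3) and B cells against naive cells 0 to 1 (1, Grik5, without naive replicate 3). The causes were not tested.

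Over all genes, Th1 against Th2 passed 315 with an offset of 50 and 345 in the authors' signal, against 544, and B cells against naive cells 2631 with median scaling, against 1720. With no fold threshold the counts were 10464 for brain against the immune mean, 9627 against dendritic cells and 9645 against B cells, 6504 for Th1, 6338 for Th2, 4235 for B cells and 6166 for dendritic cells against naive cells, 1670 for Th1 against Th2 and 4622 for dendritic against B cells. Of 1312 values of list genes 38 no longer passed and 1 reversed: Aldh5a1 in Th1 against naive cells, at −1.173 with the probe of largest variance. Hap1 in Th1 against Th2 missed 2-fold under 5 of these alternatives (−0.65 in the authors' signal) and had an adjusted p of 0.0862 in limma when only the groups compared were fitted; 2-fold was also missed by Gad2 under 3 alternatives (0.55 there).

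Scaling moved the median of all genes between brain and the immune mean (−0.15) to 0.47 with median scaling, 0.21 with loess and 0.20 in the authors' signal. The share of passing genes that were higher was 69.6% with median scaling and 64.3% in the authors' signal, against 49.2%. With median scaling it was 84.2% for B cells against naive cells (51.3%), 75.5% for dendritic against naive cells (57.3%), 42.6% for dendritic against B cells (69.3%), 27.3% for Th2 (46.7%) and 70.3% for Th1 against Th2 (48.5%). With the replicate block, Th1 against Th2 passed 539 genes and 0 members, and it changed no call named here. Signal over background limits the 18 members undetected on all 15 immune arrays.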
